A study of Mus musculus with 40 samples.

Results

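Control mouse oocytes of 2 kinds were compared by RNA sequencing: 3 libraries whose sample titles begin with GKAQ and 3 whose titles begin with GKAO. The comparison covered the loci of the deposited RNA table with a mean of at least 3 over the 6 libraries on the log2 scale of RPM (reads per 1000000 reads), and 9431 of the 38540 loci (24.5%) met that rule. The rule sets the level of a locus and not its difference between the sets. The series holds 40 samples, of which 11 are RNA libraries: these 6 controls, 3 libraries of a conditional G9a knockout (G9a cKO, GKAO titles) and 2 of a conditional double knockout of G9a and Glp (cDKO, GKAQ titles). All 6 libraries carry the genotype Control and WT in the title, and come from germinal-vesicle oocytes of mice aged 22 to 25 days, dissected by hand and pooled at 100 to 200 per sample. The strain, the Cre driver, the floxed alleles that controls may carry and the meaning of the prefixes are not given in the sources used here, so breeding line, date of collection and any other property that goes with the prefix cannot be told apart. Within the GKAO controls, the first and second libraries share the number that follows the prefix and the third does not. What that number marks is not given, so the source of the spread between these samples is not known. The p-values rest on a spread fitted over all 11 RNA libraries and drawn towards that of loci at a like level. They do not measure the spread of the 6 controls alone.

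The germinal-vesicle oocyte is an egg cell arrested in meiotic prophase. During growth it fills with messenger RNA, much of it held untranslated for maturation and for the embryo before its own genome is active, and transcription is largely shut down as growth ends. Its characteristic products are the zona pellucida glycoproteins of the egg coat, growth factors sent to the surrounding granulosa cells, the subcortical maternal complex and other maternal-effect proteins, and regulators that hold and release the meiotic arrest.

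The libraries were scaled to totals of 1458868 to 1909514 reads in the GKAO set and 1591100 to 2399680 in the GKAQ set, and every one of the 9431 loci had at least 3 reads in each library, with a median of 77.0. Pearson correlations of the log2 levels over these loci were 0.968 to 0.972 within the GKAO set, 0.977 to 0.981 within the GKAQ set and 0.950 to 0.957 between sets. These are correlations across loci, which are not independent replicates. No pair of libraries within a set agreed within sampling noise: the chi-square per degree of freedom was 1.81 to 2.55, and 2.00 for the 2 GKAO libraries that share a number. The label oocyte was checked against 15 marker genes, of which 14 were found and all 14 passed the level rule; together they took 17509 to 17820 RPM in the GKAO set and 15412 to 16128 RPM in the GKAQ set. The sets did not overlap (exact permutation test, two-sided p = 0.1, the smallest that 3 libraries against 3 allow), and the sum includes Zp2, Zp3 and Oosp1, described below. Of 23 granulosa markers found, 4 passed the level rule (Serpine2, Nr5a2, Esr2 and Cyp19a1), and their list summed to 461 to 523 RPM in the GKAO and 416 to 451 RPM in the GKAQ set. Nr5a2, a nuclear receptor, was the only one of these 4 that was called between the sets, at a log2 difference of -0.63 (adjusted p 0.0012). The other 19 had at most 21 reads in any library, with Kitl, Gja1 (19) and Inha (14) the highest. Of these 19, Inha was lower in the GKAQ set, with 5.48, 7.33 and 6.45 RPM against 1.26, 4.17 and 0.986 RPM (-1.88, SE 0.53, adjusted p 0.014). The defining granulosa genes Amh, Foxl2, Fshr and Amhr2 had at most 6 reads in any library, 8 theca and stroma markers summed to at most 5.00 RPM, 5 surface epithelium markers to at most 8.91 RPM, and the blood genes Hba-a1, Hbb-b1, Hbb-b2 and Lyz2 had no read. The 6 blood, immune and vessel markers found summed to 74.8 to 119.9 RPM, nearly all from Pecam1, which was not called. The part of these other markers in the differences below was not tested.

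**Figure D1:**
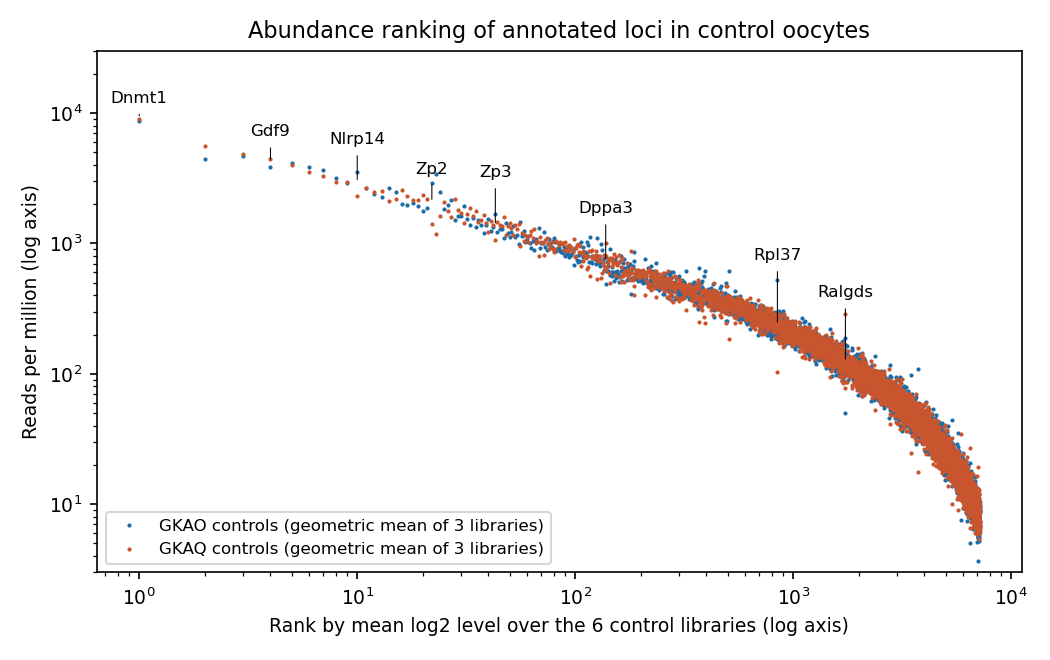
Level of each annotated locus (RPM, log axis) against its rank by mean log2 level over the 6 control libraries (log axis); blue points are geometric means of the 3 GKAO and orange points of the 3 GKAQ control libraries. The curves of the sets lie on each other along most of the ranking, while Zp2, Rpl37 and Ralgds have visibly separate blue and orange points.

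The order of transcripts was largely shared by the sets. Of the 9431 loci, 7159 lie over a gene annotated on their own strand (7101 gene symbols) and were ranked by their reads. RPM is not divided by transcript length, so these ranks order genes by the reads they take and not by molecules. Of the 100 highest loci over all 6 libraries, 88 to 93 were among the 100 highest in each single library, and the 100 highest of the GKAO set and of the GKAQ set had 85 in common. Over all 9431 loci, the 10 highest took 4.10% to 4.26% of the reads in the table, the 100 highest 16.4% to 16.9% and the 1000 highest 51.5% to 52.3%. All 9431 loci together took 97.3% to 97.5%, including 16.2% to 16.7% for the 2272 loci without a same-strand annotation.

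Dnmt1, the maintenance DNA methyltransferase, of which the oocyte stores a special form, was first in all 6 libraries. Its level was 8587, 9311 and 8187 RPM in the GKAO libraries and 9243, 8900 and 8857 RPM in the GKAQ libraries. The sets overlapped, and the fitted difference, always given here as GKAQ minus GKAO on the log2 scale, was 0.05 with a 95% interval of 0.00 to 0.10 (limma, adjusted p 0.41). Rdx, encoding radixin, which ties actin to the membrane, ranked 2 to 3 with 4421, 4308 and 4670 RPM in GKAO and 5749, 5343 and 5635 RPM in GKAQ libraries. Zbed3, a protein of the subcortical maternal complex, held 4887, 4490 and 4602 RPM in the first set and 4745, 4952 and 4848 RPM in the second, with overlap. Gdf9, the growth factor that the oocyte sends to granulosa cells, had 3810, 3874 and 3776 RPM against 4388, 4432 and 4562 RPM. Both Rdx and Gdf9 were higher in every GKAQ library, by 0.32 (SE 0.03, adjusted p 1.6e-20) and by 0.22 (SE 0.03, adjusted p 9.2e-09).

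The ranking went on with Hsp90aa1, a chaperone of the cytosol (rank 4 to 5), Nlrp5, a core protein of the subcortical maternal complex (rank 5 to 7), D6Ertd527e, Padi6, an enzyme-like protein of the oocyte's cytoplasmic lattices (rank 8 to 11), Fip1l1, part of the polyadenylation machinery (rank 8 to 13), and Nlrp14. Their ranks moved by few places between libraries except for Nlrp14, which held rank 7 to 19. Padi6 had 3331, 3317 and 2859 RPM in the GKAO set and 2818, 3128 and 2940 RPM in the GKAQ set. Nlrp14, a maternal-effect gene of the NLR family, had 3671, 3584 and 3394 RPM and 2190, 2374 and 2417 RPM. Padi6 overlapped between the sets, whereas each GKAQ library had less Nlrp14 than each GKAO library, with a difference of -0.61 (SE 0.04, adjusted p 3.1e-54). The other 15 of the 25 highest were Spin1, Ssb, Bms1, Mdm4, Skp1a, Ncl, Trim60, Zfp57, Bub1b, Nexn, Trip12, Zp2, Umodl1, Fbxw24 and Ldhb. Among them, Ncl, the nucleolar protein nucleolin, and Nexn, an actin-binding protein, were higher in the GKAQ set by 0.37 (SE 0.04, adjusted p 7.8e-16) and 0.40 (SE 0.05, adjusted p 1.3e-15), while Mdm4, an inhibitor of p53, was lower at -0.33 (SE 0.04, adjusted p 1.2e-12). H1foo, the linker histone of the oocyte, ranked 28 to 35, with 1506, 1521 and 1623 RPM in GKAO and 1625, 1681 and 1710 RPM in GKAQ libraries and an interval of 0.01 to 0.20 for the difference.

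Beneath this shared order many loci differed by a small amount. In limma with Benjamini-Hochberg adjustment over all 38540 loci, 1490 loci of the table (3.87%) were called at an adjusted p under 0.05. Of the 9431 loci, 1341 were called (14.2%), 674 higher in the GKAQ set (7.15%) and 667 lower (7.07%); 2967 had an unadjusted p under 0.05. The median difference of those called was 0.58 upward and -0.62 downward, and 480 of them (35.8%) differed by less than 0.5. A difference of at least 1, which is 2-fold, was called for 181 loci (1.92%), 77 higher (0.816%) and 104 lower (1.10%). The 3 values of one set lay wholly apart from those of the other at 3422 loci (36.3%). For 3 interchangeable libraries against 3, such a split has a probability of 0.1. Among these loci were 1311 of the 1341 called, an overlap largely built into the call. Values are shares of the reads of a pool, so fewer oocytes with a transcript and less of it per oocyte cannot be told apart. The count depends on the fit: it was 394 on log2(RPM + 1) and 62 without the trend of variance with level, and 940 to 1141 without any 1 control library.

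**Figure D2:**
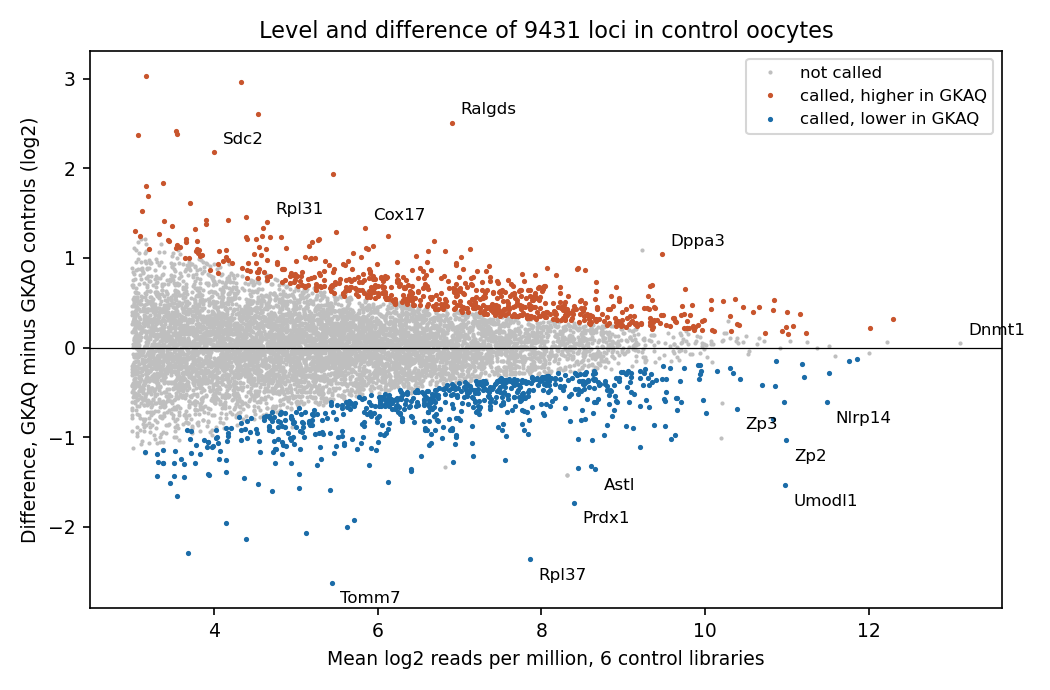
Difference between the control sets (GKAQ minus GKAO, log2) against mean level (log2 RPM, 6 libraries) for the 9431 loci; orange and blue points are the 674 and 667 called loci and grey points were not called. Of the 181 called differences of at least 1, 114 stand at a mean log2 of 3 to 5 and 5 at 9 or above. Ralgds at the top and Tomm7 and Rpl37 at the bottom are the largest of the labelled genes.

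The share called rose with level. It was 4.94% of 3968 loci at a mean log2 of 3 to 5, 13.2% of 3522 at 5 to 7, 31.6% of 1664 at 7 to 9 and 55.2% of 277 at 9 or above. The median standard error fell along the same bands from 0.30 to 0.06, while the median absolute difference of all loci was 0.30, 0.23, 0.21 and 0.22. The spread within sets was 0.19 in the GKAO and 0.16 in the GKAQ controls (median SD of log2 RPM, n = 3 each). The plot of level against difference shows the same narrowing, with small differences called at the right and only large ones at the left. Of the 395 loci that met the level rule although the mean of 1 set was below 3, 37 were called, beside 196 of all 3968 loci at 3 to 5. That group passed through the set in which it is high, so it favours loci that differ between the sets. At the edge of the rule, the locus just inside had a mean of 3.0008 and the one just outside 2.9995.

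The zona genes Zp2 and Zp3 and the fertilization gene Astl were lower in the GKAQ set. Of 6 loci from the list of zona pellucida and fertilization genes, 3 were called lower in the GKAQ set and 0 higher, with a list median of -0.37 beside 0.01 over all 9431 loci. The share, 50.0%, exceeds the 14.2% of all loci but not the 55.2% of those at a mean log2 of 9 or above, and the list's median level is 9.01. Shares of the oocyte lists below are given with their median levels and stand beside 13.2% of all loci at 5 to 7, 31.6% at 7 to 9 and 55.2% above. Zp2, a zona glycoprotein that sperm meet at the egg surface, had 2930, 2912 and 2837 RPM in the GKAO and 1335, 1474 and 1423 RPM in the GKAQ libraries. The sets were far apart beside their spread, with 2.05-fold more in GKAO and a log2 difference of -1.04 (SE 0.04, adjusted p 7.3e-129). Zp3, which forms the zona filaments together with Zp2, had 1692, 1690 and 1700 RPM in the first set and 1018, 1078 and 1075 RPM in the second. Its 3 GKAO values were almost equal and all above the GKAQ values, at -0.68 (SE 0.05, adjusted p 2.5e-39). Astl encodes ovastacin, the cortical granule protease that cleaves ZP2 after fertilization, and had 668, 701 and 574 RPM against 219, 257 and 283 RPM. This was the largest difference of the list, -1.36 (SE 0.08, adjusted p 3.8e-65), again with no overlap. Zp1, which cross-links the filaments, did not follow: it had 661, 683 and 620 RPM and 604, 716 and 693 RPM, with overlapping sets and a difference of 0.03 (95% interval -0.10 to 0.16). The sperm receptor Juno, listed in the table as Folr4, and the tetraspanin Cd9 were not called. The 3 calls held under each alternative run for them, including the fits without each control library.

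The promoters of Zp3 and Astl, and of Oosp1 described next, are printed. E-boxes in promoters of zona genes are known docking sites of FIGLA, an oocyte transcription factor. Figla itself was not called. Each run is the 250 bases before the RefSeq transcription start (GRCm38.p6), read 5′ to 3′ on the gene's strand, with matches to CAGGTG (either strand, so CACCTG too) or CACGTG in capitals; the table holds no entry for Zp2.
Zp3 (chr5:135979855-135980104, plus strand): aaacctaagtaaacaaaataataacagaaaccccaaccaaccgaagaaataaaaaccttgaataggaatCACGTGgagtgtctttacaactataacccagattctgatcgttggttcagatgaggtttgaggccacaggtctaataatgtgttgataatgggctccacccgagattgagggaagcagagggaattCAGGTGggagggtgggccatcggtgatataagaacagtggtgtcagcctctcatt
Astl (chr2:127341386-127341635, plus strand): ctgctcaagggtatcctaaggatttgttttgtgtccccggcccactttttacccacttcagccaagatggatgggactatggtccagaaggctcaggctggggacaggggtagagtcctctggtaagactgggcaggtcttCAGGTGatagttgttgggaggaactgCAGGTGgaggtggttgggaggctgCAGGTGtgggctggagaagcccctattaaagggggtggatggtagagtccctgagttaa
Oosp1 (chr19:11691052-11691301, minus strand): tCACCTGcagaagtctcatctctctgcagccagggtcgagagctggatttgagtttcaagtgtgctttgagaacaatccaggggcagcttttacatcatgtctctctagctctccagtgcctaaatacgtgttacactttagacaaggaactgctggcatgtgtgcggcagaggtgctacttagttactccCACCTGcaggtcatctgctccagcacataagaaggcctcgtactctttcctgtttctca
The CAGGTG matches begin 55 bases before the start in Zp3, at 109, 83 and 59 in Astl and at 249 and 59 in Oosp1; Zp3 also holds CACGTG at 181. Such matches are common. CAGGTG was found for 19.4% of all genes with a promoter in the table, 19.5% of the annotated genes studied here that have one (5093 of 7101), 16.8% of those called higher and 19.8% of those called lower. CACGTG was found for 6.86%, 10.3%, 8.75% and 13.1% in the same order.

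**Figure D3:**
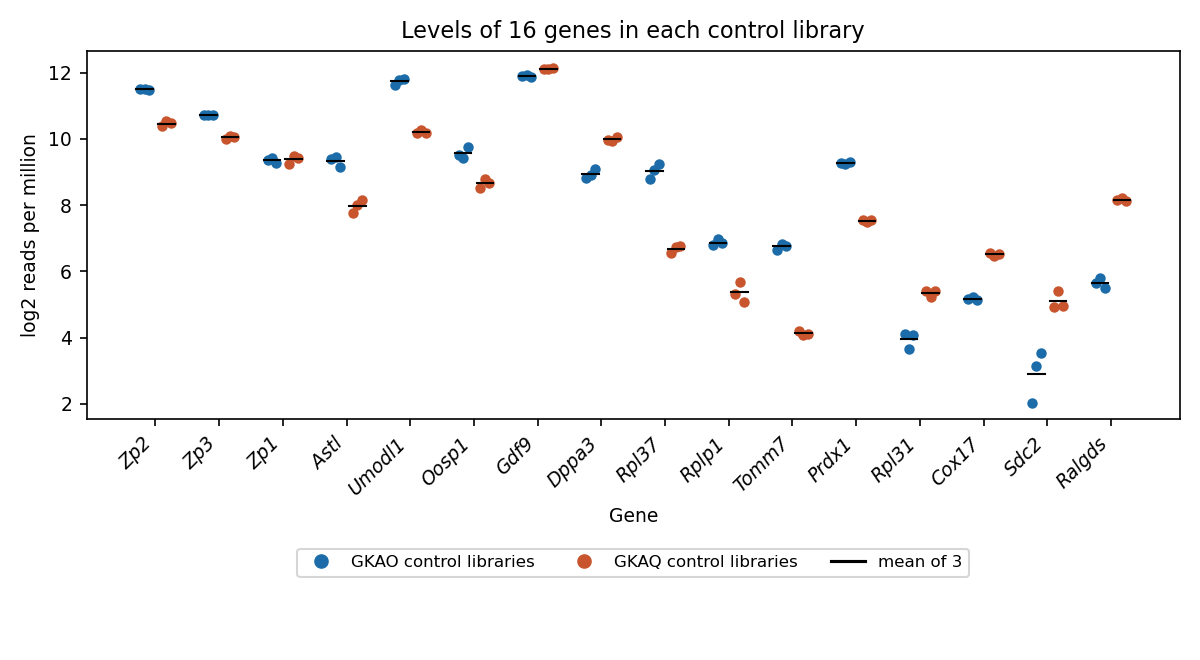
Log2 RPM of 16 genes in each of the 3 GKAO (blue) and 3 GKAQ (orange) control libraries; black bars are the mean of 3. Only Zp1 has overlapping sets among these genes; Tomm7, Rpl37 and Ralgds have the widest gaps.

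Among 7 genes of factors secreted by the oocyte, 1 was called higher (Gdf9, above) and 2 lower, 42.9% at a median level of 7.93, with a median difference of -0.12. Oosp1, an oocyte-secreted protein, had 736, 689 and 858 RPM in the GKAO and 365, 444 and 410 RPM in the GKAQ libraries. The lowest GKAO value exceeded the highest GKAQ value, and the difference was -0.90 (SE 0.07, adjusted p 6.2e-33). Its neighbour on chromosome 19, listed as Plac1l (also known as Oosp2), was lower as well, at -0.66 (SE 0.14, adjusted p 0.00018), a call that log2(RPM + 1) did not give. Bmp15, the partner of GDF9 in signalling to granulosa cells, had 1030, 1005 and 971 RPM and 982, 928 and 961 RPM, with an interval of -0.18 to 0.05 around -0.07. Of 11 oocyte transcription factor loci, 3 were called higher and 0 lower (27.3%, median level 7.82), each by at most 0.33: the homeobox genes Obox2, Obox5 and Lhx8. All 3 calls were lost without single libraries, for Obox2 without the first GKAO library (adjusted p 0.23), the second GKAO library (0.14), the second GKAQ library (0.13) or the third (0.25). Without single libraries the adjusted p reached 0.34 for Obox5 and 0.24 for Lhx8. Nobox, a homeobox factor that the growing oocyte needs, was measured at 458, 486 and 488 RPM and 497, 485 and 519 RPM and was not called. Obox genes have near-identical copies, so their counts are uncertain.

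Of 14 loci of maternal-effect genes, 3 were called higher and 2 lower, 35.7% at a median level of 9.96, with a median difference of 0.08. Dppa3 (also called Stella) protects the maternal genome from demethylation in the zygote. It had 450, 485 and 546 RPM in the GKAO libraries and 992, 989 and 1068 RPM in the GKAQ libraries. Every GKAQ value was near 1000 RPM and every GKAO value near 500 RPM, a 2.06-fold difference, 1.05 (SE 0.07, adjusted p 1.1e-46). The locus listed as 2410004A20Rik (Khdc3, or Filia, a protein of the subcortical maternal complex) was higher too, with 428, 383 and 335 RPM against 583, 593 and 653 RPM and 0.68 (SE 0.08, adjusted p 1.1e-15). Nlrp2 was called higher at 0.31 and Nlrp5 lower at -0.13, but neither call held without each library: the adjusted p was 0.089 for Nlrp2 without the second GKAO and 0.16 without the second GKAQ library, and 0.29 for Nlrp5 without the first GKAO and 0.80 without the second GKAQ library. Nlrp14, given above, was the other gene called lower. The rest of the list, among them Dnmt1, Zbed3, Padi6, Zfp57, Npm2, Uhrf1 and Trim28, was not called.

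Among regulators of stored messenger RNA, 3 of 16 loci were called higher and 2 lower, 31.2% at a median level of 8.70 (median difference 0.09). Btg4, which recruits the deadenylase that removes maternal messages, had 538, 517 and 599 RPM in GKAO and 800, 664 and 760 RPM in GKAQ libraries, and was called higher at 0.43 (SE 0.07, adjusted p 5.3e-07). Igf2bp2, an RNA-binding protein, was lower with 1150, 1143 and 994 RPM against 870, 862 and 841 RPM, at -0.35 (SE 0.06, adjusted p 4.8e-07). Neither gene overlapped between sets, although both calls were lost on log2(RPM + 1) and that of Igf2bp2 also with voom weights. Zar1l, a relative of the zygote arrest gene Zar1, differed more, 649, 709 and 775 RPM against 373, 392 and 398 RPM. It was called only narrowly (-0.87 (SE 0.19, adjusted p 0.045)) and was not called without any 1 of the 6 control libraries (adjusted p up to 0.16). Its standard error comes from the fit to all 11 libraries and is wide beside the 0.07 of Cpeb1, a gene of the same list at a like level. Of 18 loci for meiotic arrest and resumption, 2 were called higher and 4 lower, 33.3% at a median level of 6.85 (median difference -0.03). Gpr3, the receptor that keeps the oocyte arrested through cyclic AMP, had 52.8, 49.8 and 38.7 RPM in the GKAO and 85.5, 82.1 and 76.4 RPM in the GKAQ set, 0.80 (SE 0.19, adjusted p 0.0010). Mastl (Greatwall), the kinase that restrains a phosphatase at meiotic entry, had 398, 374 and 462 RPM and 280, 325 and 290 RPM, -0.46 (SE 0.08, adjusted p 6.1e-06). Ccnb2, a B-type cyclin, was lower in the GKAQ set at -0.61 (SE 0.14, adjusted p 0.00054). On log2(RPM + 1) none of these 3 was called. Ccnb1, Aurka and Bub1b were called too, but each lost its call without at least 3 of the 6 control libraries in turn; their adjusted p reached 0.23, 0.17 and 0.47.

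**Figure D4:**
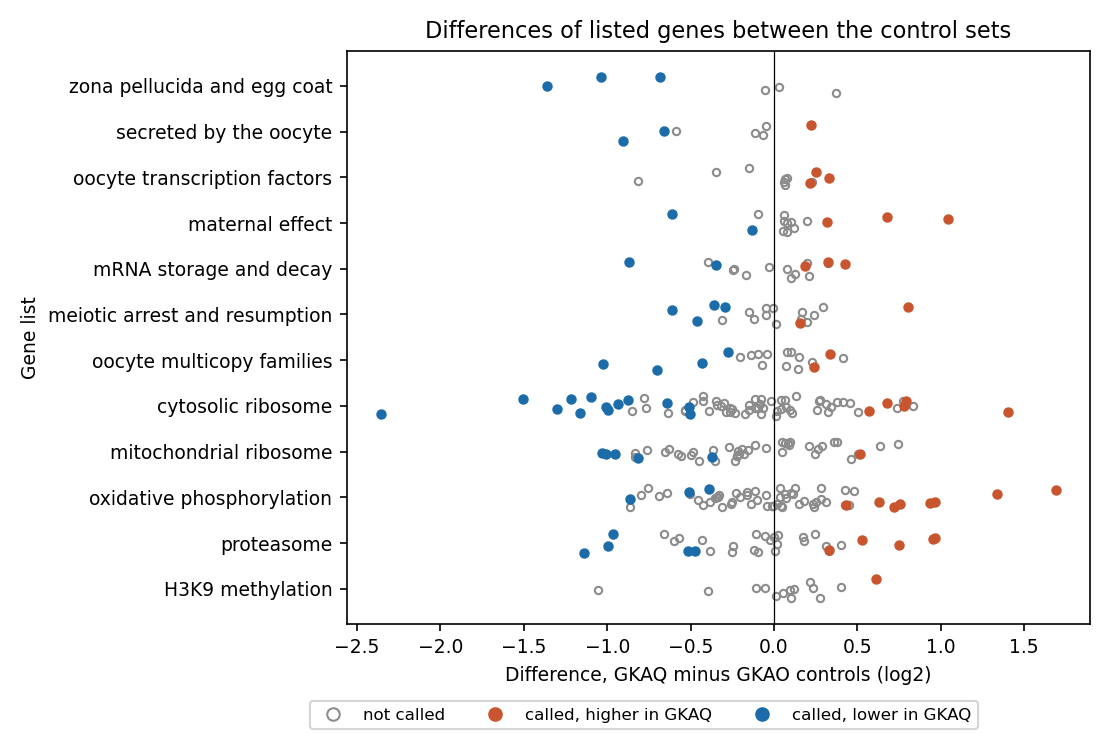
Difference between the control sets (GKAQ minus GKAO, log2) of each measured locus in 12 gene lists; filled points were called (orange higher, blue lower in GKAQ) and open points were not, with vertical scatter for legibility only. The list of zona pellucida and fertilization genes (labelled zona pellucida and egg coat) has its 3 called genes at the left. The cytosolic ribosome list has 13 at the left and 5 at the right.

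In multicopy gene families of the oocyte, where reads of near-identical copies may be split or shared by the authors' counting, 2 of 18 loci were called higher and 4 lower, 33.3% at a median level of 9.05 (median difference 0.01). E330017A01Rik had 1012, 1158 and 1122 RPM in the GKAO set and 525, 544 and 545 RPM in the GKAQ set. That is close to 2-fold with no overlap, -1.03 (SE 0.06, adjusted p 2.2e-56). Oas1e, of the oligoadenylate synthetase cluster on chromosome 5, had 984, 1074 and 1020 RPM and 619, 701 and 579 RPM, -0.70 (SE 0.06, adjusted p 1.3e-25). Its neighbours Oas1c, Oas1d and Oas1h were not called. Nlrp4f was lower at -0.43 (SE 0.04, adjusted p 8.3e-19) and Oog4 at -0.28 (SE 0.08, adjusted p 0.018). The 2 called higher were Trim60 at 0.24 (SE 0.04, adjusted p 4.2e-06) and Nlrp9a at 0.33 (SE 0.09, adjusted p 0.0054). Outside this list, Fbxw24, one of the F-box genes clustered on chromosome 9, was lower at -0.61 (SE 0.04, adjusted p 1.6e-39). It had 2374, 2507 and 2490 RPM against 1520, 1634 and 1693 RPM.

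Genes of chromatin and small RNA pathways were called at 42.9% (DNA methylation), 7.14% (H3K9 methylation), 15.4% (small RNA) and 11.1% (histones), beside 14.2% of all loci; the DNA methylation list stands higher, at a median level of 9.25 on the log2 scale. Of 7 DNA methylation loci, 2 were called higher and 1 lower (median 0.10). Besides Dppa3, Setd2, the H3K36 methyltransferase, was higher with 382, 287 and 275 RPM in GKAO and 458, 424 and 432 RPM in GKAQ libraries (0.49 (SE 0.08, adjusted p 1e-06)), and Tet3, which oxidizes 5-methylcytosine, was lower with 339, 298 and 283 RPM and 219, 211 and 232 RPM (-0.47 (SE 0.10, adjusted p 9.9e-05)). Both calls were lost on log2(RPM + 1), and that of Tet3 with voom weights as well. Of 14 loci for H3K9 methylation, 1 was called, Cdyl, a chromodomain reader, at 0.61 (SE 0.16, adjusted p 0.0046); without the second GKAQ library its adjusted p was 0.063. Of 13 small RNA loci, 1 was called higher (Dicer1, 0.36 (SE 0.07, adjusted p 6.8e-06), not called on log2(RPM + 1)) and 1 lower (Tdrd12, which lost its call without each of the 6 libraries in turn). Among 9 histone and histone chaperone loci Npm1 alone was called, at 0.29, with an adjusted p up to 0.095 without single libraries. None of 5 stress and immediate early loci was called in limma (0 at an unadjusted p under 0.05, and 0 called with voom weights), and 1 of 7 energy metabolism loci was (Ldhb, a subunit of lactate dehydrogenase, 0.19, adjusted p 0.080 without the third GKAQ library).

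Ribosomal and mitochondrial genes were called in both directions. Of 70 loci listed by the symbols of cytosolic ribosomal proteins, 5 were called higher and 13 lower (median difference -0.13). Together these were 25.7% at a median level of 5.26, beside 14.2% of all loci and 13.2% of those at 5 to 7. The symbols also took in Rps6ka1, Rps6ka3, Rps6ka5, Rps6ka6 and Rps19bp1, which are not ribosomal proteins and were not called. Rpl29, called lower, had a GKAQ mean just below the level limit and met the rule through the GKAO set. Rpl37 had 445, 534 and 609 RPM in the GKAO and 93.6, 106 and 108 RPM in the GKAQ libraries. It was 5.13-fold higher in the GKAO set, -2.36 (SE 0.10, adjusted p 3.4e-123). Rplp1 and Rplp0, proteins of the ribosomal stalk, were lower in the GKAQ set too, at -1.50 (SE 0.15, adjusted p 2.9e-19) and -1.22 (SE 0.11, adjusted p 6.2e-24). Rplp2, another stalk protein, went the other way with 193, 167 and 245 RPM against 326, 318 and 311 RPM (0.68 (SE 0.10, adjusted p 9.2e-09)). Rpl31 was also higher, with 17.1, 12.6 and 17.0 RPM against 42.1, 37.5 and 42.9 RPM (1.40 (SE 0.25, adjusted p 2.4e-06)). Members of the same ribosome thus stood on both sides, each with sets that did not overlap. Ribosomal protein genes have many processed copies in the genome, and reads shared with these make their counts uncertain. The calls of Rplp1 and Rplp2 were lost on log2(RPM + 1), where 4 of the 70 were called lower and 2 higher; with voom weights 7 were called lower. The 5 called higher became 3 without the first GKAO, the second GKAQ or the third GKAQ library.

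Of 45 mitochondrial ribosomal loci, 1 was called higher and 5 lower, 13.3% in all and near the 14.2% of all loci (median -0.21). Their median level was 4.84, where 4.94% of all loci at 3 to 5 and 13.2% at 5 to 7 were called. The 5 became 3 lower without the first or second GKAO or the third GKAQ library. Of 61 oxidative phosphorylation loci, 8 were called higher and 3 lower, 18.0% in all at a median level of 5.23 (median difference -0.0044). The list was drawn by gene symbol and is not confined to subunits, since Cox17, described below, is among the 8. The 8 became 4 without the second GKAO or the first GKAQ library and 5 without the second GKAQ library. They became 4 with voom weights and 3 on log2(RPM + 1). Ndufa12, among the 8, had a GKAO mean below the level limit and met the rule through the GKAQ set. Cox17, a copper chaperone of cytochrome c oxidase, had 36.3, 37.2 and 35.2 RPM in the GKAO and 94.3, 87.5 and 92.2 RPM in the GKAQ set. It was higher in each GKAQ library, 1.33 (SE 0.19, adjusted p 3.5e-10). Ndufv2, a subunit of complex I, had 46.6, 48.2 and 43.4 RPM and 85.5, 97.9 and 81.3 RPM, 0.94 (SE 0.17, adjusted p 5.6e-06). Atp5b, the catalytic subunit of ATP synthase, was lower at -0.39 (SE 0.08, adjusted p 0.00028), though not on log2(RPM + 1). Of 32 proteasome loci, 5 were called in each direction, 31.2% in all (median -0.04). Their median level was 6.78, where 13.2% of all loci at 5 to 7 and 31.6% at 7 to 9 were called. Psmd5, a chaperone of proteasome assembly, had 145, 136 and 142 RPM against 76.7, 78.3 and 62.1 RPM, -0.97 (SE 0.14, adjusted p 6.9e-10). Psma7, a subunit of the core, had 134, 104 and 151 RPM against 246, 200 and 202 RPM, 0.75 (SE 0.12, adjusted p 2.8e-08), a call lost with voom weights and on log2(RPM + 1). Of 151 zinc finger loci, 6 were called higher and 2 lower, or 5.30%, beside 14.2% of all 9431 loci. Their median level was 5.13 beside 5.37, and 4.94% of all loci at 3 to 5 and 13.2% at 5 to 7 were called. Zfp770 and Zfp846, both called higher, had a GKAO mean below the level limit and met the rule through the GKAQ set.

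The largest difference upward among annotated loci was at Ralgds (chr2:28513112-28553081, plus strand), which encodes an exchange factor that activates Ral GTPases downstream of Ras. It had 50.0, 56.0 and 45.7 RPM in the GKAO libraries and 288, 298 and 277 RPM in the GKAQ libraries. The sets lay 5.70-fold apart, with a spread within sets that was small beside that gap, 2.51 (SE 0.14, adjusted p 2.8e-66). It has 2 listed promoters, of which 1 is printed because the locus had the largest upward difference. The printed one holds 1 CACGTG (capitals, 74 bases before the start) and no CAGGTG in the 250 bases.
Ralgds (chr2:28512917-28513166, plus strand): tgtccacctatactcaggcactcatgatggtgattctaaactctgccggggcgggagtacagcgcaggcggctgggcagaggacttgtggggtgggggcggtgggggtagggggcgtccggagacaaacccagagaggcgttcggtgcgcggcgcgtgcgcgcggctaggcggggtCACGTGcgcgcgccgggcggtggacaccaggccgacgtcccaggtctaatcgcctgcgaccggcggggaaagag
Scarna13, a small Cajal body RNA, had 4.11, 5.24 and 5.86 RPM against 22.6, 27.1 and 31.5 RPM, 2.42 (SE 0.37, adjusted p 9.5e-09). Sdc2, the heparan sulphate proteoglycan syndecan-2, had 4.11, 8.90 and 11.7 RPM against 30.2, 42.9 and 31.1 RPM, 2.18 (SE 0.29, adjusted p 3.2e-11). Both had a mean below the level limit in the GKAO set and met the rule through the GKAQ set, in which they are high. The size of their differences rests on few reads. Mex3c, an RNA-binding ubiquitin ligase, had 51.4, 42.9 and 42.8 RPM against 110, 111 and 103 RPM and differed by 1.25 (SE 0.17, adjusted p 2.7e-11). The other 11 of the 15 largest were Tmsb15l, Ndufa12, Scand1, Zfp846, Rpl31, Ammecr1, Cox17, 4933421E11Rik, Armc4, Hddc3 and Drd3. Of these, at least Ndufa12 and Zfp846 also had a GKAO mean below the level limit and met the rule through the GKAQ set. On log2(RPM + 1) 7 of the 15 were not called (Tmsb15l, Scand1, Zfp846, Hddc3, 4933421E11Rik, Armc4 and Drd3), and with voom weights Hddc3, Armc4 and Drd3 were not. Of all 15, 3 lost their call without single libraries: 4933421E11Rik without the first GKAO library (adjusted p 0.064), Armc4 without the first GKAO (0.69) or second GKAQ library (0.17), and Drd3 without the third GKAO (0.24), the second GKAQ (0.11) or the third GKAQ library (0.11).

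Downward, Tomm7, a small subunit of the protein import complex of the outer mitochondrial membrane, had 100, 115 and 110 RPM in the GKAO and 18.2, 17.1 and 17.3 RPM in the GKAQ libraries. It was 6.16-fold higher in the GKAO set and nearly constant within each, -2.62 (SE 0.19, adjusted p 1.6e-39). Prdx1, a peroxiredoxin that removes peroxides, had 613, 605 and 626 RPM against 186, 180 and 189 RPM, -1.73 (SE 0.19, adjusted p 0.00011). Umodl1, a uromodulin-like membrane protein among the 25 highest transcripts, had 3165, 3536 and 3620 RPM against 1158, 1228 and 1162 RPM. It ranked from 8 to 57 across the libraries, and the difference was -1.54 (SE 0.19, adjusted p 0.0045). The standard error comes from the fit to all 11 libraries, and for Prdx1 and Umodl1 it is wide beside the spread of the controls. l7Rn6 (Hikeshi), which carries HSP70 into the nucleus, had 47.3, 37.2 and 49.2 RPM against 8.80, 11.7 and 9.86 RPM, -2.14 (SE 0.25, adjusted p 8.4e-15). Arpc4, a subunit of the Arp2/3 complex that branches actin, had 69.2, 58.7 and 38.7 RPM against 20.7, 22.5 and 17.7 RPM, -1.42 (SE 0.21, adjusted p 6.4e-09). The rest of the 15 were Rpl37 and Rplp1, above, and Gm16062, 1110058L19Rik, Gm13465, Ddt, Atpaf2, Tfb2m, Polr2f and U2, of which Atpaf2 lost its call without the first GKAQ library (adjusted p 0.064). On log2(RPM + 1) Ddt, Polr2f, Atpaf2 and Rplp1 were not called, nor were Ddt and Atpaf2 with voom weights. U2, a spliceosomal RNA, has many copies, so its count is uncertain. At least Gm13465 had a mean below the level limit in the GKAQ set (2.73) and met the rule through the GKAO set, in which it is high.

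Loci without a same-strand gene differed about as often as annotated ones: 296 of 2272 were called (13.0%) beside 1045 of 7159 (14.6%). Of the 2272, 1779 lie opposite a gene, 449 have no gene and 44 lie near one. Whether the authors counted by strand is not given in the sources used here, so reads of a locus opposite a gene and reads of that gene cannot be told apart. The largest upward difference of these loci, 3.03, was opposite the start of Setd2 (chr9:110531390-110533943, minus strand), with 3.43, 2.62 and 3.52 RPM in the GKAO and 24.5, 24.2 and 29.1 RPM in the GKAQ libraries (SE 0.38, adjusted p 6.4e-13). This locus had a mean below the level limit in the GKAO set and met the rule through the GKAQ set, in which it is high. Setd2 itself differed by 0.49, in the same direction and far less. Loci opposite Klhl8 (chr5:103910539-103913177, plus strand) and Suds3 (chr5:117115218-117118723, plus strand) were higher by 2.97 and 2.61, where the genes differed by 0.58 and 0.56. Downward, a locus opposite Camk2g (chr14:20792846-20796541, plus strand) had 67.9, 72.3 and 75.6 RPM against 17.6, 20.4 and 13.8 RPM, -2.07 (SE 0.21, adjusted p 3.6e-20), beside -0.24 for the gene. A locus with no gene on chromosome 9 (chr9:109522347-109527877, minus strand), at lower coordinates than Fbxw24, had 98.0, 107 and 103 RPM against 22.6, 27.9 and 31.1 RPM, -1.93 (SE 0.18, adjusted p 3.7e-24). These 5 calls held under each alternative run for them.

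The genes targeted in the mutants of the series were not called between the controls. Ehmt1, which encodes GLP, had 80.2, 54.5 and 68.0 RPM in the GKAO and 90.5, 68.3 and 85.3 RPM in the GKAQ libraries, with overlapping sets, 0.28 (SE 0.18, adjusted p 0.45) and an interval of -0.07 to 0.63. Ehmt2, which encodes G9A, was below the level limit, with 8.23, 6.81 and 5.27 RPM against 5.03, 12.5 and 7.89 RPM, 0.25 (SE 0.51, adjusted p 0.76) and a wide interval of -0.75 to 1.25. Of the loci nearby, 18 of 118 loci within 10 Mb of Ehmt1 (15.3%) and 23 of 157 within 10 Mb of Ehmt2 (14.6%) were called, beside 14.2% of all, and the share per chromosome ran from 10.7% on chromosomes 8 and 15 to 17.6% on chromosome 9. Ralgds lies within the window of Ehmt1, as does Zmynd19, which lies next to Ehmt1, with 256, 238 and 275 RPM against 503, 463 and 453 RPM (0.89 (SE 0.09, adjusted p 5.1e-21)), and Hspa5, the chaperone BiP of the endoplasmic reticulum, with 341, 307 and 295 RPM against 558, 504 and 504 RPM (0.73 (SE 0.09, adjusted p 1.2e-14)). Umodl1 lies within the window of Ehmt2, as does the axonemal dynein gene listed as Dnahc8, lower at -0.70 (SE 0.08, adjusted p 3e-16), a call lost on log2(RPM + 1).

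The same comparison of prefixes can be made in the mutant libraries, which share no sample with the controls: 2 cDKO libraries (GKAQ titles) against 3 G9a cKO libraries (GKAO titles). The titles of all 3 G9a cKO libraries and of 1 of the 2 cDKO libraries carry the same number after the prefix as a control, so the comparisons may share what that number marks, and they are not independent of each other in that respect. There the prefix and the added loss of Glp cannot be told apart. Of the 9431 loci, 1436 were called there (15.2%), 8.39% higher and 6.84% lower in the cDKO. Of the 1341 loci called between controls, 1177 (87.8%) differed in the same direction between the mutants, 535 of them called in the same direction and 15 called in the opposite one. Among the 181 with a control difference of at least 1 the share was 93.9%, with 83 called in the same direction and 0 in the opposite one. Of the 8090 loci not called between controls, 62.2% had the same sign. Over the 1341 called loci the Pearson correlation of the differences was 0.808, a description across loci, and the median absolute difference was 0.60 between controls and 0.37 between mutants.

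**Figure D5:**
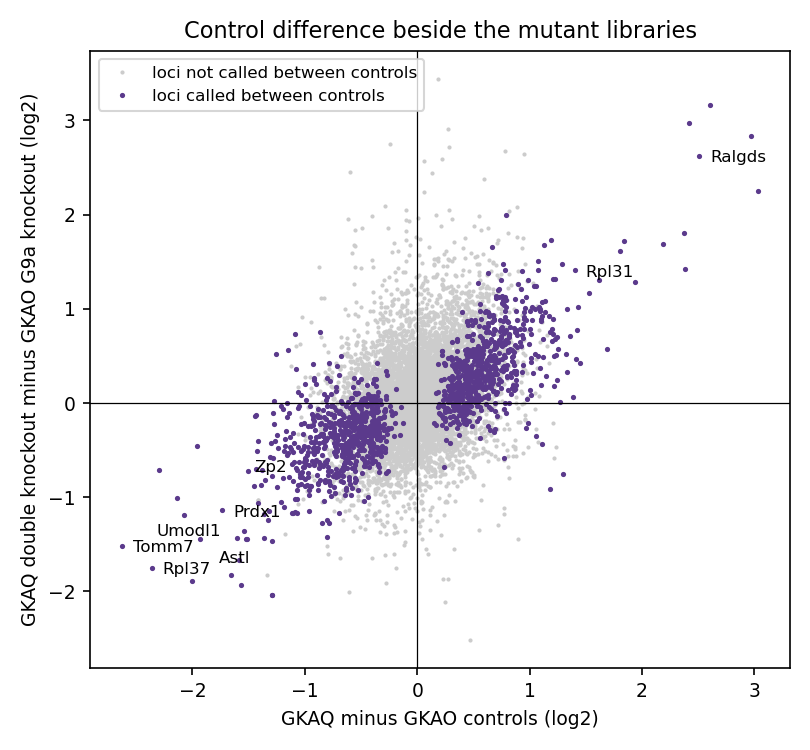
Difference of GKAQ double knockout minus GKAO G9a knockout libraries against difference of GKAQ minus GKAO controls (both log2) for the 9431 loci; purple points were called between controls and grey points were not. Ralgds stands at the upper right on both axes, and Tomm7, Rpl37 and Umodl1 at the lower left.

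Of the genes described above, several were called in both comparisons. Ralgds had 41.3, 38.8 and 41.4 RPM in the G9a cKO and 259 and 241 RPM in the cDKO libraries, a difference of 2.62 (adjusted p 1.1e-57) beside 2.51 in the controls. Zp2 had 3214, 3265 and 3131 RPM in the G9a cKO and 1880 and 1648 RPM in the cDKO libraries, -0.86 (adjusted p 1.3e-70) beside -1.04. For Astl, Rpl37, Tomm7 and Dppa3 the mutant difference was -1.44 (adjusted p 1e-57), -1.75 (adjusted p 1.5e-53), -1.52 (adjusted p 4.6e-10) and 0.99 (adjusted p 3.6e-33), each called and in the direction of the controls. Other control differences were not called between the mutants. Rplp0 differed by -1.22 between controls and by -0.04 (adjusted p 0.86) between mutants, Rdx by 0.32 and -0.03 (adjusted p 0.58), and Gdf9 by 0.22 and -0.02 (adjusted p 0.75). Whether these differences between contrasts exceed their error was not tested. Dnmt1, not called between the controls, differed between the mutants by -0.53 (adjusted p 2.5e-71).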

How the data were processed

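RNA-seq of 6 control libraries was analysed within the table of 11 RNA libraries that the authors deposited. Per the file headers it holds 1 value per library and assembled transcript locus; from its values the deposited unit is log2 of reads per 1000000 reads (RPM), and empty loci hold the value of 0.9 read. In each control library 100% of values gave whole reads (tolerance 0.02 read). Per the submitters' processing notes, GRCm38, Trim Galore, Bowtie2, HISAT2 2.1.0 and Bismark 0.19.0 were used, with no role given; the counting method is not given in the sources used here. A mean per group was fitted to the deposited log2 values of all 38540 loci with limma 3.58.1 in R 4.3.3 (variance trend, robust moderation, two-sided, Benjamini-Hochberg over all loci), and called means an adjusted p under 0.05. The fit was tested on simulated data with an assumed spread between libraries, equal in all sets, where 1 of 9284 unchanged loci was called. That spread was not estimated from these data, so the count does not carry over to the real libraries. The loci, gene lists and tests were chosen with earlier results of these data known. Named genes were the 25 highest, the 15 largest non-overlapping differences per direction, called genes and the 3 highest of each list, Ehmt1 and Ehmt2, called genes within 10 Mb of these, and the 10 largest unannotated differences; library replicates are numbered in accession order. Alternatives were the 6 controls alone, other moderation, median centring, log2(RPM + 1), voom weights, other filters, the title number as a random block and leaving out each library. Plots were drawn with matplotlib 3.10.9 (Python 3.11.15, pandas 2.3.3).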

Additional observations from a re-analysis of the deposited data

How the results depend on the processing

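On log2(RPM + 1), 394 loci were called, 162 higher and 232 lower in the GKAQ set, with 84 at a difference of at least 1; without the variance trend these counts were 62, 24, 38 and 56. The share called higher was 41.1% and 38.7% there, beside 50.3% in the reported fit. On log2(RPM + 1), 16 loci were called within 10 Mb of Ehmt1 or Ehmt2 in place of 41, and 12 of the 139 loci in the 13 written gene lists in place of 38. The cause was not tested. Of the 181 called loci with a difference of at least 1, 67 had a mean log2 of at least 5 and 117 were annotated. These are subsets of the same calls, with no new test, and 114 of the 181 stood at a mean log2 of 3 to 5. Leaving out each control library in turn gave 444 to 573 loci called higher in place of 674, under 1.5 times fewer except without the first GKAQ library (447) and the third (444), and 26 to 34 loci near Ehmt1 or Ehmt2 in place of 41, with 26 without the second GKAO, 27 without the first GKAQ and 26 without the third GKAQ library. Of the 1341 calls, 922 to 1043 were made again in the same direction in those fits, and 856 with voom weights, where 969 were called. No call changed direction under any of these alternatives. Of 157 named called loci, 58 were called under every alternative run for them. Differences that were not called and changed sign were Ehmt2, from -0.081 without the second GKAQ library to 0.58 without the first, and Zp1, from -0.017 without the second GKAQ to 0.11 without the first GKAQ library, and -0.0074 without the third GKAO library. In the 100 highest transcripts, 91 to 99 remained under each alternative. Ranks per transcript length were not run, since no lengths are in the sources used here. No paired analysis was possible because no number in the titles is shared by the GKAO and the GKAQ set, so a fixed block on it cannot be told from the prefix. With the title number as a random block over all 11 libraries, added after seeing the data, 1489 loci were called (1333 of the 1341 again), at a consensus correlation of -0.15; Zar1l lost its call, and 5 oxidative phosphorylation loci were called lower in place of 3. In simulated libraries of these depths, 62% of 2-fold and 96% of 3-fold changes were recovered among 200 changed loci. The spread between the simulated libraries was assumed and not estimated from these data, so recovery in the real libraries may be another. A locus that was not called may still differ.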
